A study of Mus musculus with 8 samples.

Results

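The genes described here encode 9 proteins that the exocrine pancreas makes for digestion, and they were followed through 4 sorted subsets of mouse medullary thymic epithelial cells (mTECs). They were chosen by name, as Cela1, Cela2a, Cela3b, Ctrb1, Cpa1, Cpb1, Cel, Pnlip and Clps, out of 25466 genes in the deposited count table, and all 9 were found there. The cells came from thymi of wt (BL6N6) mice aged 4 to 6 weeks, and mTECs were sorted by FACS as cells positive for Epcam and negative for CDR1 and CD45. They were then divided by the membrane protein Tspan8 and by the level of MHCII into Tspan8negMHCIIlo, Tspan8negMHCIIhi, Tspan8posMHCIIhi and Tspan8posMHCIIlo cells, with 2 RNA-seq libraries labelled as biological replicates for each subset. No subset carried a mutation or a treatment, the gates define the groups, and the number of mice behind a library is not given in the sources used here. In a bulk library of this kind, fewer cells that transcribe a gene and less RNA of that gene per cell cannot be told apart.

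mTECs transcribe many genes that otherwise belong to peripheral tissues, so that developing T cells meet those self-antigens in the thymus, and each such gene is known to be transcribed in a small share of the cells at a time. The nuclear protein Aire, found mainly in MHCII-high mTECs, releases many of these genes. In the pancreas, acinar cells store digestive enzymes in zymogen granules, most of them as inactive precursors, and the transcription factor PTF1, a complex of Ptf1a with Rbpjl or Rbpj, switches the enzyme genes on together with Nr5a2.

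Of the 9, 6 act on protein. Cela1, Cela2a and Cela3b are elastase-like serine proteases, Ctrb1 is the precursor of the serine protease chymotrypsin, and Cpa1 and Cpb1 are carboxypeptidases, zinc enzymes that trim proteins from their end. The remaining 3 act on fat. Cel is the lipase that bile salts activate, Pnlip is the main pancreatic triglyceride lipase, and Clps is colipase, the small protein that holds Pnlip to the fat droplet. In GENCODE annotation of GRCm38 they lie on 8 chromosomes. Only Cela2a (chr4:141814962-141826160, minus strand) and Cela3b (chr4:137420999-137430540, minus strand) share one. Ctrb1 lies at chr8:111686519-111691010 and Cel at chr2:28555795-28563403, both on the minus strand. Pnlip lies at chr19:58652498-58681788 on the plus strand and Clps at chr17:28558149-28560766 on the minus strand. Cela1 (chr15:100674421-100687921, minus strand), Cpa1 (chr6:30639218-30645363, plus strand) and Cpb1 (chr3:20248264-20275733, minus strand) complete the set. Cela2a overlaps Ctrc on its own strand and Casp9 on the other, so its counts are reported as uncertain, as are those of Cel, which Gm13381 overlaps on the opposite strand. Ctrb1 and Clps each overlap a microRNA gene on their strand.

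The upstream sequences of Ctrb1, Cel and Cela3b are shown because these genes had the largest fitted differences between MHCIIhi and MHCIIlo cells within Tspan8neg mTECs, while their levels in Tspan8pos cells went different ways. Each is the 250 bases before the RefSeq start on GRCm38.p6, written 5′ to 3′ on the strand of the gene, with matches to any of 4 motifs in capitals. The motifs were the TATA box TATAAA, the E-box CACCTG to which Ptf1a binds, TTTCCCA for the RBPJ part of PTF1, and CAAGGTCA for NR5A2. Both strands were searched, so that a match on the other strand appears as the reverse complement, and no matches overlapped in these 3 windows.
Ctrb1, chr8:111691011-111691260: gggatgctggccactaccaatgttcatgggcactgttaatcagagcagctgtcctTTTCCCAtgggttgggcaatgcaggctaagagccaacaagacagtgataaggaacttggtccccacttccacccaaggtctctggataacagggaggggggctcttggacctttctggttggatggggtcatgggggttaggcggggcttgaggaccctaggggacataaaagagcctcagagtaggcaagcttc
Cel, chr2:28563404-28563653: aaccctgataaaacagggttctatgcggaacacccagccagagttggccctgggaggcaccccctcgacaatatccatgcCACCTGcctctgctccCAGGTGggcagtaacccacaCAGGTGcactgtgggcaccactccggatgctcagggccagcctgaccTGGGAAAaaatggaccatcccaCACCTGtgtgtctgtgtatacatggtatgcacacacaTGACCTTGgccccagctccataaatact
Cela3b, chr4:137430521-137430770: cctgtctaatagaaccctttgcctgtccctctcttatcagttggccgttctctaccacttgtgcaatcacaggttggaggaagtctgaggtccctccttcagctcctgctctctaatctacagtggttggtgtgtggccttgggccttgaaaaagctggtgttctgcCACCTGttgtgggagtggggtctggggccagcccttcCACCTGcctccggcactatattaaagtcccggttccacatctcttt
The window of Cel held 4 copies of CACCTG, at 170 and 65 bases before the start on the strand of the gene and at 154 and 134 bases on the other, with 1 TTTCCCA at 87 bases and 1 CAAGGTCA at 28 bases. That of Cela3b held CACCTG at 83 and 46 bases before the start, and that of Ctrb1 held 1 TTTCCCA at 195 bases. Of 8 members with an entry (Clps had none), 5 held CACCTG, namely Cel, Cela3b, Cela1, Cela2a and Cpb1, against 17.29% of the 32536 windows of the same length in the table. TTTCCCA was found in Cel, Ctrb1, Cela2a and Cpa1 and in 6.8% of all promoters, and TATAAA in Cela1 and Pnlip and in 12.31% of all. CAAGGTCA was found in Cel alone of the 8 and in 1.33% of all. These are matches of letters, and no binding was measured here.

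Library totals ranged from 1941518 to 7783841 estimated counts with a median of 4857084, a span of 4.01 times, and the smallest library was replicate 1 of Tspan8posMHCIIlo. Values are given as CPM, counts put on a common library size by the TMM method, and 3 counts, the floor used here, stood for 0.383 to 1.65 CPM depending on the library. The sort could be followed in the counts: Tspan8 was at 377 and 356 CPM in the Tspan8pos subsets and at 7.86 and 9.11 in the Tspan8neg subsets, the MHCII gene H2-Ab1 was at 5019 and 2518 CPM in the MHCIIhi subsets against 1881 and 502, and all 6 mTEC markers examined (Epcam, Cdh1, Krt5, Krt8, Cldn3 and Cldn4) were found in every library.

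Ctrb1 was the most abundant of the 9. It gave 828 of the members' counts, or 52.6%, ahead of Cel with 266 (16.9%), Clps with 178 (11.3%), Cela2a with 119 (7.56%), Cela3b with 76 (4.83%), Pnlip with 61 (3.87%) and Cela1 with 35 (2.22%). Cpa1 and Cpb1 were close to absent, with 7 and 5 counts over all 8 libraries. Per kilobase of the longest coding transcript, the scale on which genes can be compared, Ctrb1 also led in both MHCIIhi subsets, at 36.7 CPM per kb in Tspan8neg and 41.2 in Tspan8pos cells. Colipase (Clps) followed at 7.92 and 14.4 CPM per kb, Cel stood at 7.18 and 2.73, and the lipase that Clps serves, Pnlip, stood at 2.15 and 0.811. The elastases Cela3b and Cela2a changed places between the Tspan8 gates, with 6.07 and 2.53 CPM per kb in Tspan8negMHCIIhi cells against 0.541 and 7.11 in Tspan8posMHCIIhi cells.

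Under 3 counts were found in 7 of 8 libraries for Cpb1, 6 for Cpa1, 5 for Cela3b, 4 for Cela1, 3 for Cela2a, 2 each for Cel and Pnlip, and 1 each for Ctrb1 and Clps. All of the libraries under 3 counts for Ctrb1, Cel, Pnlip, Clps, Cela1 and Cela2a were MHCIIlo libraries. In Tspan8posMHCIIlo cells 6 of the 9 genes were under 3 counts in both libraries, in Tspan8negMHCIIlo cells 4 were, in Tspan8posMHCIIhi cells 2 were (Cpa1 and Cpb1), and in Tspan8negMHCIIhi cells none was. A level of 0 in these libraries therefore says only that the gene was under the floor at that depth.

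Summed over the 9 genes, the enzyme transcripts reached 56.7 and 74.1 CPM in the libraries of Tspan8negMHCIIhi and 70.5 and 53.1 in those of Tspan8posMHCIIhi. They came to 3.92 and 7.75 CPM in Tspan8negMHCIIlo and to 3.84 and 6.67 in Tspan8posMHCIIlo. The sums thus lay far apart between the MHCII gates and overlapped between the Tspan8 gates at either MHCII level. The means were 65.4 ± 12.3 (SD, n = 2) and 61.8 ± 12.3 CPM in the MHCIIhi subsets and 5.84 ± 2.71 and 5.26 ± 2.00 CPM in the MHCIIlo subsets. Every one of the 9 genes had its highest mean in an MHCIIhi subset, 5 of them in Tspan8neg cells (Cela3b, Cpa1, Cpb1, Cel and Pnlip) and 4 in Tspan8pos cells (Cela1, Cela2a, Ctrb1 and Clps). Of all genes in the table, 50.4% had their highest mean in an MHCIIhi subset. For 7 of the 9, that is all but Cpa1 and Cpb1, every one of the 4 MHCIIhi libraries lay above every one of the 4 MHCIIlo libraries, which held for 9.26% of all genes in the table.

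**Figure D1:**
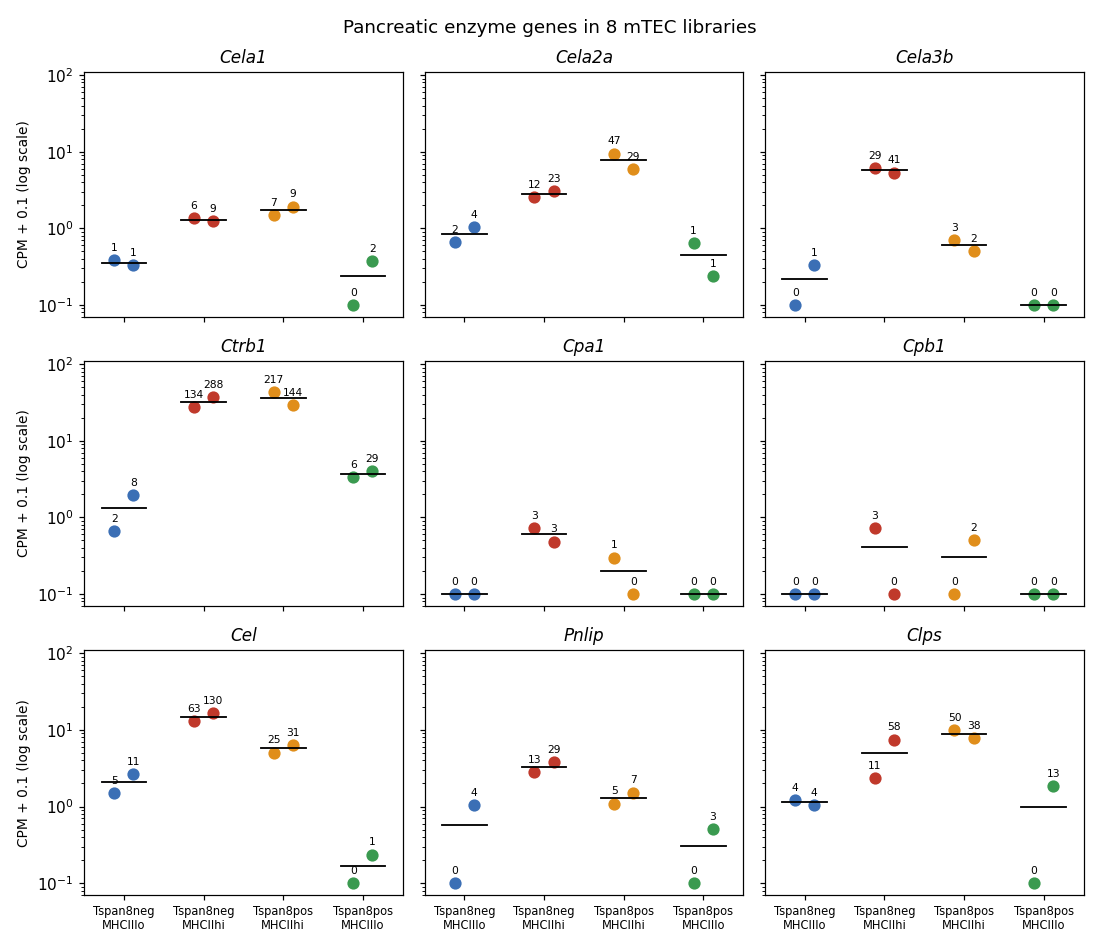
CPM plus 0.1 on a log scale for the 9 pancreatic enzyme genes in each of the 8 libraries, 2 points for each subset with the deposited count above each point and a line at the mean of the 2 libraries. Ctrb1 sits highest, at 27.7 to 43.1 CPM in the 4 MHCIIhi libraries, and Cela3b stands out in Tspan8negMHCIIhi with 29 and 41 counts against 3 or fewer in every other library.

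The first question was how the enzyme genes differ with the MHCII level, which follows the maturation of mTECs in part, since MHCIIlo cells include both early and late stages. edgeR's quasi-likelihood test, run on 17006 genes that passed its filter on low counts, covered 6 of the members. Cela1, Cpa1 and Cpb1 were too low to pass. A gene was called at a Benjamini-Hochberg adjusted p under 0.01 and a change of at least 1 on the log2 scale. Within Tspan8neg mTECs, 3 of the 9 genes were higher in MHCIIhi than in MHCIIlo cells (Ctrb1, Cel and Cela3b), where 13.1% of all genes tested were called higher. Within Tspan8pos mTECs, 3 were higher (Ctrb1, Cel and Cela2a), against 4.59% of all genes tested. None was lower in either comparison, where 9.67% and 2.62% of all genes were, and all 6 fitted changes were positive in both. The median fitted log2 change of the 6 was 2.75 in Tspan8neg and 3.82 in Tspan8pos cells, beside -0.04 and 0.01 over all genes tested. However, a gene that passed the filter through its MHCIIhi libraries alone had to differ in this direction. Of the 6, only Ctrb1 was high enough in its MHCIIlo libraries to pass on those alone. For the other members the shared direction, and with it the median, was thus set in part by the filter.

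Ctrb1, the chymotrypsin precursor, was found at 134 and 288 counts in the Tspan8negMHCIIhi libraries and at 217 and 144 in the Tspan8posMHCIIhi libraries. It was found at 2 and 8 counts in Tspan8negMHCIIlo and at 6 and 29 in Tspan8posMHCIIlo. All 4 MHCIIhi libraries were thus high, and the MHCIIlo libraries were low but, with the exception of 1, above the floor. In CPM the means were 32.2 ± 6.36 against 1.22 ± 0.933 in Tspan8neg cells, a ratio of summed counts per depth of 26.1 with a 95% exact interval of 14.0 to 54.7. In Tspan8pos cells they were 36.1 ± 9.85 against 3.62 ± 0.465 CPM, with a ratio of 9.48 (6.69 to 13.8). Such intervals cover counting error only, since reads amplified by PCR without molecular identifiers are not independent molecules. The fitted log2 changes were 4.65 ± 0.42 (SE) with an adjusted p of 1.12e-05 and 3.25 ± 0.35 with an adjusted p of 0.000115 by edgeR, and both calls remained on leaving out any 1 library.

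Cel, the bile salt-activated lipase, was at 63 and 130 counts in Tspan8negMHCIIhi and at 25 and 31 in Tspan8posMHCIIhi. In the MHCIIlo subsets it gave 5 and 11 counts in Tspan8neg cells and 0 and 1 in Tspan8pos cells. Its 4 subsets did not overlap, in the order Tspan8negMHCIIhi, Tspan8posMHCIIhi, Tspan8negMHCIIlo and Tspan8posMHCIIlo, with means of 14.8 ± 2.50, 5.62 ± 0.930, 1.99 ± 0.837 and 0.0681 ± 0.0963 CPM. The MHCIIhi to MHCIIlo ratio was 7.45 (4.47 to 13.3) in Tspan8neg cells, where edgeR gave a log2 change of 2.86 ± 0.43 with an adjusted p of 0.00032. In Tspan8pos cells a single count in the MHCIIlo libraries left the ratio wide, at 51.5 (8.87 to 2070), with an adjusted p of 0.000573 by edgeR. The second of these calls was lost without replicate 2 of Tspan8posMHCIIlo, at an adjusted p of 0.0281.

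Cela3b, an elastase-like protease, was nearly confined to one subset. It gave 29 and 41 counts in Tspan8negMHCIIhi and 3 and 2 in Tspan8posMHCIIhi, and among the MHCIIlo libraries a single count was found, in replicate 2 of Tspan8negMHCIIlo. Both Tspan8negMHCIIhi libraries therefore stood alone, the lower of them at 5.23 CPM, with no other library above 0.596 CPM. The ratio to Tspan8negMHCIIlo was 43.2 with an interval of 7.51 to 1732, and edgeR's adjusted p was 0.00151. This call was lost without replicate 1 or without replicate 2 of Tspan8negMHCIIhi, at adjusted p of 0.0208 and 0.0229, and by DESeq2, at 0.0107. In Tspan8pos cells 5 counts in MHCIIhi stood against 0 in MHCIIlo, which is 1.53-fold a floor of 3 counts over the 2 MHCIIlo libraries, and the adjusted p was 0.119. Its close relative Cela3a was listed but not found by symbol in the count table, so reads shared between these sequences could not be weighed.

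Cela2a, the second elastase, had 47 and 29 counts in Tspan8posMHCIIhi, 12 and 23 in Tspan8negMHCIIhi, 2 and 4 in Tspan8negMHCIIlo and 1 and 1 in Tspan8posMHCIIlo. The Tspan8posMHCIIhi libraries were the highest and the Tspan8posMHCIIlo libraries the lowest, so the distance between the MHCII gates was widest within Tspan8pos cells. The ratio there was 34.9 (9.35 to 294), with an adjusted p of 0.00137 by edgeR. The call was lost without replicate 1 of Tspan8posMHCIIhi, at an adjusted p of 0.018, or without replicate 2 of Tspan8posMHCIIlo, at 0.0592. In Tspan8neg cells the ratio was 3.60 (1.5 to 10.5) and the adjusted p was 0.047, which missed the threshold. Cela1, the elastase with the lowest counts, gave 6 and 9 counts in Tspan8negMHCIIhi and 7 and 9 in Tspan8posMHCIIhi against 0 to 2 in the MHCIIlo libraries. Its groups did not overlap. Its ratios of 4.63 (1.08 to 41.7) and 7.36 (1.73 to 65.9) were not called when the edgeR test was run without the filter, with adjusted p of 0.19 and 0.164, and neither were those of Cpa1 and Cpb1.

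Pnlip and Clps, the lipase and its cofactor, lay on the same side without being called in the main test. Pnlip had 13 and 29 counts in Tspan8negMHCIIhi, 5 and 7 in Tspan8posMHCIIhi, 0 and 4 in Tspan8negMHCIIlo and 0 and 3 in Tspan8posMHCIIlo. Each MHCIIhi library was above each MHCIIlo library in CPM, the closest being 0.993 against 0.940. Its MHCIIhi to MHCIIlo ratios were 6.48 (2.35 to 24.9) in Tspan8neg cells, with an adjusted p of 0.0416 by edgeR, and 3.68 (0.993 to 20.3) in Tspan8pos cells, with 0.303. Clps had 50 and 38 counts in Tspan8posMHCIIhi, 11 and 58 in Tspan8negMHCIIhi, 4 and 4 in Tspan8negMHCIIlo and 0 and 13 in Tspan8posMHCIIlo. The replicates of Tspan8negMHCIIhi differed by a larger ratio than those of the other genes with over 10 counts in both libraries there, at 2.28 and 7.40 CPM. Its ratios were 5.33 (2.56 to 12.8), with an adjusted p of 0.0363, and 6.22 (3.46 to 12.2), with 0.0251. When the edgeR test was run without the filter, Clps was called with MHCII in Tspan8pos cells, at an adjusted p of 0.00705.

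**Figure D2:**
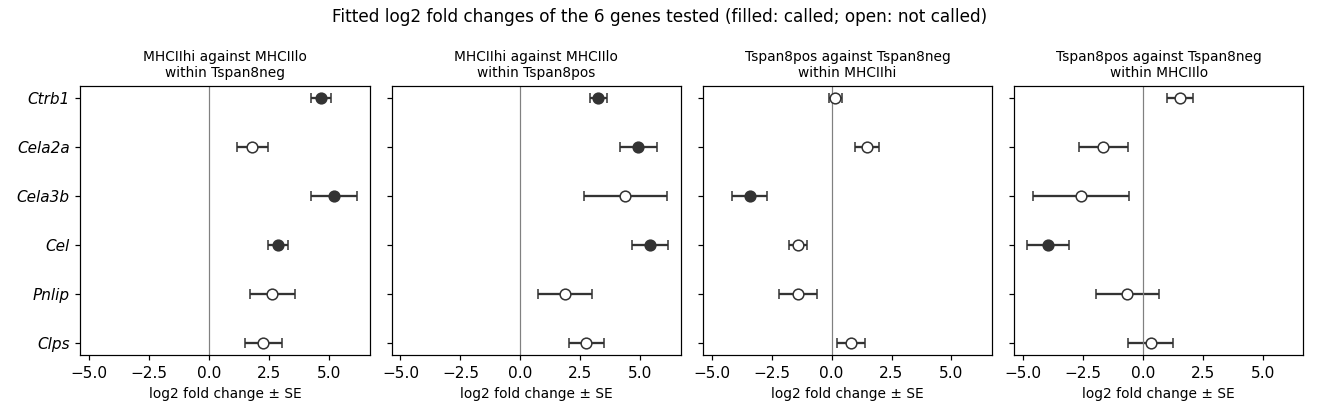
Fitted log2 fold changes with their standard errors for the 6 genes tested by edgeR in 4 comparisons, filled where the gene was called. All points lie right of 0 in both MHCII comparisons, whereas in the Tspan8 comparison within MHCIIhi cells Cela3b lies at -3.42, Cel at -1.40, Ctrb1 at 0.15 and Cela2a at 1.47. Fitted values that involve Tspan8posMHCIIlo rest on 0 counts for Cela3b and on 1 for Cel.

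Markers of other cells also moved with the MHCII gate. The 4 myeloid and dendritic cell markers (Itgax, Flt3, Lyz2 and Csf1r) summed to 337 and 383 CPM in Tspan8negMHCIIhi and 277 and 273 in Tspan8posMHCIIhi, against 44.8 to 102 CPM in the MHCIIlo libraries, and only in replicate 1 of Tspan8posMHCIIlo was any of them at 0. Lyz2 made up most of these sums, at 304 CPM in Tspan8negMHCIIhi against 39.5 CPM in Tspan8negMHCIIlo. The dendritic cell integrin Itgax lay the other way in Tspan8neg cells, at 5.13 CPM in Tspan8negMHCIIhi against 17.4 CPM in Tspan8negMHCIIlo (adjusted p 0.0269, not called). The 6 thymocyte markers (Ptprc, Cd3e, Rag1, Lck, Cd4 and Cd8a) went the other way, with 335 and 930 CPM in Tspan8negMHCIIlo, 114 and 196 in Tspan8posMHCIIlo and 62.5 to 129 in the MHCIIhi libraries, and none was at 0 in any library. The 4 cortical epithelial markers (Psmb11, Prss16, Ctsl and Ly75) summed to 1052 and 813 CPM in Tspan8negMHCIIlo against 239 to 467 CPM in the other subsets. Most of it was Ctsl, at 777 CPM in Tspan8negMHCIIlo, whereas Ly75 was at 44.9 CPM there and 68.4 CPM in Tspan8negMHCIIhi. The B cell and plasma cell markers Cd79a, Ms4a1 and Jchain summed to 72.0 and 112 CPM in Tspan8negMHCIIlo and to at most 15.5 CPM in the other subsets, with Jchain the highest of them at 78.4 CPM in Tspan8negMHCIIlo. The 4 fibroblast and endothelial markers (Col1a1, Pdgfra, Pecam1 and Cdh5) summed to 29.6 and 32.6 CPM in Tspan8posMHCIIhi and to 59.8 to 130 CPM elsewhere. Within Tspan8neg cells they were called in both directions with MHCII, Col1a1 higher (27.9 to 89.5 CPM) and Pecam1, Pdgfra and Cdh5 lower. The part of these cells in the enzyme levels was not tested. Aire itself was at 2555 ± 129 CPM in Tspan8negMHCIIhi, 470 ± 98.0 in Tspan8posMHCIIhi, 208 ± 5.53 in Tspan8negMHCIIlo and 25.0 ± 14.5 in Tspan8posMHCIIlo. The means of Cel, Cela3b and Pnlip had the same order of subsets as Aire, while those of Cela1, Cela2a, Ctrb1 and Clps were highest in Tspan8posMHCIIhi. Between Tspan8negMHCIIlo and Tspan8posMHCIIlo that order rested on 1 count against 0 for Cela3b and on 4 against 3 for Pnlip, differences that were not called.

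The second question was whether the enzyme genes differ with Tspan8, the antigen by which the study marked a group of co-expressed self-antigens. In MHCIIhi cells, 1 of the 9 genes was lower in Tspan8pos than in Tspan8neg mTECs, where 7.45% of all genes tested were called lower, and none was higher, where 11% were. At an unadjusted p under 0.05, 1 gene (Cela2a) lay higher. DESeq2 called none in either direction, but gave no adjusted p for 5 of the 9. The gene called was Cela3b, at 5 counts against 70. Cela3b had passed the filter on low counts through its Tspan8negMHCIIhi libraries alone, so it had to lie in this direction. Its ratio was 0.0908 (0.0286 to 0.222), with a log2 change of -3.42 ± 0.72 and an adjusted p of 0.00425 by edgeR. The call was lost on leaving out any of the 4 MHCIIhi libraries, at adjusted p between 0.0387 and 0.061, and DESeq2 gave Cela3b no adjusted p there.

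Cel fell just short of a call in the same comparison. Its Tspan8posMHCIIhi libraries, at 4.97 and 6.28 CPM, lay below both Tspan8negMHCIIhi libraries, at 13.0 and 16.6. The ratio was 0.369 (0.269 to 0.499), the log2 change -1.40 ± 0.36 and the adjusted p 0.0106 by edgeR, and with DESeq2's size factors in the same test it was 0.0082. Pnlip had a ratio of 0.363 (0.174 to 0.703) and an adjusted p of 0.185. On the other side, Cela2a had a ratio of 2.76 (1.83 to 4.24) with an adjusted p of 0.0385, and Clps 1.62 (1.17 to 2.25) with 0.308. For Ctrb1 the groups overlapped, at 27.7 and 36.7 CPM in Tspan8neg against 43.1 and 29.2 in Tspan8pos cells. Its ratio of 1.09 had a counting interval of 0.942 to 1.25, and the adjusted p was 0.684, which does not show that the levels were equal. The median log2 change of the 6 was -0.62, beside -0.03 over all genes tested.

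In MHCIIlo cells, where most counts were small, 1 of the 9 genes was lower in Tspan8pos than in Tspan8neg mTECs. Here 9.34% of all genes tested were called lower and 12.1% higher. None was higher by edgeR, which tested 6, or by DESeq2, which gave no adjusted p for 5 of the 9. At an unadjusted p under 0.05 by edgeR, 1 (Ctrb1) lay higher. The median log2 change of the 6 tested was -1.14, beside -0.03 over all genes. The gene called was Cel, with 0 and 1 counts against 5 and 11. Its ratio was 0.0534 (0.00127 to 0.343), with an adjusted p of 0.00414 by edgeR. The call was lost without replicate 2 of Tspan8negMHCIIlo at an adjusted p of 0.0266, without replicate 1 of Tspan8posMHCIIlo at 0.014, without replicate 2 of Tspan8posMHCIIlo at 0.0601, and by DESeq2 at 0.0152. Ctrb1 lay in the opposite direction, at 3.29 and 3.95 CPM in Tspan8pos against 0.560 and 1.88 in Tspan8neg cells. Its ratio was 2.99 (1.45 to 6.76), and its adjusted p of 0.0422 missed the threshold. The other genes had at most 13 counts per library in these subsets, and their differences were not detectable at this depth.

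**Figure D3:**
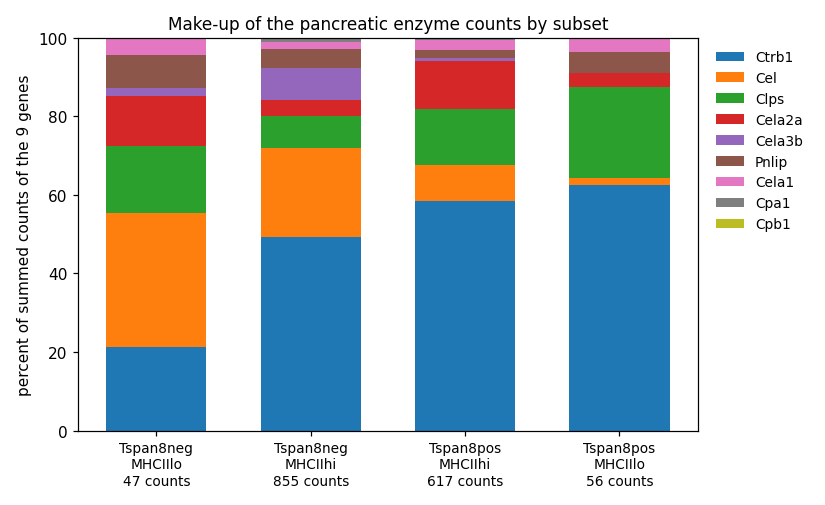
Share of each gene, in percent, in the summed counts of the 9 genes for each subset, with the number of counts under each bar. Ctrb1 makes up 21.3% of 47 counts in Tspan8negMHCIIlo, 49.4% of 855 in Tspan8negMHCIIhi, 58.5% of 617 in Tspan8posMHCIIhi and 62.5% of 56 in Tspan8posMHCIIlo, and the share of Cel shrinks from 22.6% to 9.08% between the MHCIIhi subsets.

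In the counts pooled over the 2 libraries of a subset, between Tspan8negMHCIIhi and Tspan8posMHCIIhi, Cel went from 22.6% to 9.08% of the enzyme counts and Cela3b from 8.19% to 0.81%, while Cela2a went from 4.09% to 12.3% and Clps from 8.07% to 14.3%. These shares carry no test.

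Whether the MHCII difference itself depended on Tspan8 was tested as an interaction, the log2 change with MHCII in Tspan8neg cells minus that in Tspan8pos cells. edgeR called none of the 6 genes tested, where 4.6% of all genes tested were called. DESeq2 called none, but gave no adjusted p for 5 of the 9 (Cpb1, Cela1, Cela3b, Pnlip and Cpa1). At an unadjusted p under 0.05 there were 3 of the 6 tested. These were Cela2a at -3.11 ± 1.14 with an adjusted p of 0.105, Cel at -2.54 ± 1.00 with 0.13, and Ctrb1 at 1.40 ± 0.61 with 0.173. The wider MHCII distances of Cela2a and Cel in Tspan8pos cells and of Ctrb1 in Tspan8neg cells were thus not shown to differ beyond the spread between libraries.

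The remaining pairs of subsets complete the order of the levels. Between the highest subset for Cel and Cela3b and the lowest for most genes, Tspan8posMHCIIlo against Tspan8negMHCIIhi, 4 of the 9 genes were lower (Cela3b, Cel, Ctrb1 and Cela2a), where 14.6% of all genes tested were called lower. As in the MHCII comparisons, the filter on low counts set these directions in part, and Cela3b had passed it through Tspan8negMHCIIhi alone. With Tspan8posMHCIIlo taken at a floor of 3 counts over the 2 libraries, Cela3b was 16.9-fold lower. Ctrb1 fell by 3.10 ± 0.35 on the log2 scale with an adjusted p of 2.78e-05, and Cel had a ratio of 0.00716 (0.00018 to 0.0404) with 1.04e-05. Without replicate 2 of Tspan8posMHCIIlo the calls of Cela2a and Cela3b were lost, at adjusted p of 0.145 and 0.02, and 2 remained. The call of Cela2a was also lost without either replicate of Tspan8negMHCIIhi (adjusted p 0.0149 and 0.0277), without replicate 1 of Tspan8posMHCIIhi (0.0125) and with DESeq2 (0.0225). Between Tspan8posMHCIIhi and Tspan8negMHCIIlo, 3 genes were higher (Ctrb1, Cela2a and Clps), where 14.4% of all genes were. Ctrb1 rose by 4.80 ± 0.42 with an adjusted p of 5.36e-06 and Clps by 3.07 ± 0.76 with 0.00686. Without replicate 1 of Tspan8posMHCIIhi only Ctrb1 remained, with adjusted p of 0.0209 for Cela2a and 0.0398 for Clps. The call of Clps was also lost without either replicate of Tspan8negMHCIIlo (adjusted p 0.0126 and 0.0209) and without replicate 2 of Tspan8posMHCIIhi (0.0208).

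Neighbours in the order that were not called apart were, for Ctrb1, the MHCIIhi pair and the MHCIIlo pair. For Cela2a they were the MHCIIhi pair, Tspan8negMHCIIhi and Tspan8negMHCIIlo, and the MHCIIlo pair. For Cel, the MHCIIhi pair and Tspan8posMHCIIhi against Tspan8negMHCIIlo were not called apart, and for Cela3b no pair below Tspan8negMHCIIhi was. For Pnlip no pair of subsets was called apart, and for Clps only Tspan8posMHCIIhi and Tspan8negMHCIIlo were.

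Beside the 9 members, genes for further acinar products were examined. Of 12 other pancreatic proteases listed, 10 were in the table and 4 were tested. Prss1, a trypsinogen, gave 26 and 35 counts in Tspan8negMHCIIhi and 12 and 2 in Tspan8posMHCIIhi, and 0 in all 4 MHCIIlo libraries. It was at least 12.6-fold higher in MHCIIhi than in MHCIIlo cells within Tspan8neg mTECs, with an adjusted p of 0.00425 by edgeR, and at least 4.29-fold within Tspan8pos mTECs, where it was not called. Try4, another trypsinogen, was not tested, and its 6 and 12 counts were all in Tspan8negMHCIIhi. Prss2, also a trypsinogen, had its highest mean in Tspan8posMHCIIhi, at 22.0 CPM against 8.09, 8.82 and 3.72 in Tspan8negMHCIIhi, Tspan8posMHCIIlo and Tspan8negMHCIIlo. It was higher with Tspan8 in MHCIIhi cells by 1.44 ± 0.28 on the log2 scale (adjusted p 0.00193) and higher with MHCII in Tspan8pos cells by 1.39 ± 0.29 (adjusted p 0.00776). Klk1, a kallikrein, was the most abundant of this list at 51.6 to 110 CPM and was higher with Tspan8 in MHCIIhi cells, by 1.08 ± 0.17 (adjusted p 0.000429). Trypsinogens are a family of similar sequences, so their counts are uncertain.

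Of 12 other lipases, amylases and nucleases, 8 were in the table and 6 were tested. Pla2g1b, the pancreatic phospholipase, had 66 and 92 counts in Tspan8negMHCIIhi, 25 and 29 in Tspan8posMHCIIhi, 0 and 1 in Tspan8negMHCIIlo and 0 and 4 in Tspan8posMHCIIlo. It was higher in MHCIIhi cells in both Tspan8 gates (adjusted p 6.68e-05 and 0.00341). Pnliprp2, a lipase related to Pnlip, was instead found mostly in Tspan8posMHCIIhi, at 85 and 63 counts against 3 and 5 in Tspan8negMHCIIhi, a log2 change of 4.50 ± 0.67 (adjusted p 0.000364). The nuclease Rnase1 went with Tspan8 at both MHCII levels, with log2 changes of 2.36 ± 0.24 and 2.98 ± 0.28 in MHCIIhi and MHCIIlo cells. Amy2a1, Amy2a2, Amy2a3 and Amy2b were listed but not found in the table. The amylase genes that were found stayed low, with no mean of Amy1, Amy2a4 or Amy2a5 above 3.75 CPM. Of these only Amy1 was tested, and it was not called in the MHCII or Tspan8 comparisons.

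Of 11 granule, inhibitor and other secretory proteins, 10 were in the table and 6 were tested. The trypsin inhibitor Spink1 stood at 387 CPM in Tspan8posMHCIIhi and 118 in Tspan8posMHCIIlo against 13.0 and 6.92 in the Tspan8neg subsets, so that in Tspan8posMHCIIhi cells its CPM exceeded the sum of the 9 enzymes. It was higher with Tspan8 by 4.87 ± 0.34 in MHCIIhi cells (adjusted p 1.42e-06) and by 4.04 ± 0.37 in MHCIIlo cells (adjusted p 1e-05). The granule protein Gp2, also known as a marker of microfold cells, was higher with Tspan8 at both levels and was highest in Tspan8posMHCIIlo at 1339 CPM. Reg1, a secreted lectin-like protein, had 69 and 100 counts in Tspan8negMHCIIhi and 155 and 169 in Tspan8posMHCIIhi against 1 to 16 in the MHCIIlo libraries, and was higher with MHCII in both gates and with Tspan8 in MHCIIhi cells. Cuzd1, a granule membrane protein, was higher with MHCII in Tspan8neg cells, and Zg16, a granule lectin, was higher with MHCII in Tspan8pos cells and with Tspan8 in MHCIIhi cells. Over the 3 lists, 28 genes were in the table, and 23 had their highest mean in an MHCIIhi subset, as did 50.4% of all genes. All 4 MHCIIhi libraries lay above all 4 MHCIIlo libraries for 8 of them, and for 9.26% of all genes. Of 16 tested, 4 were called higher and none lower with MHCII in Tspan8neg cells, where 13.1% and 9.67% of all genes tested were. In Tspan8pos cells 5 were called higher and none lower, where 4.59% and 2.62% of all genes tested were. The filter on low counts set this direction in part here too. Prss1, Pla2g1b and Cuzd1, for example, passed it through MHCIIhi libraries alone.

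**Figure D4:**
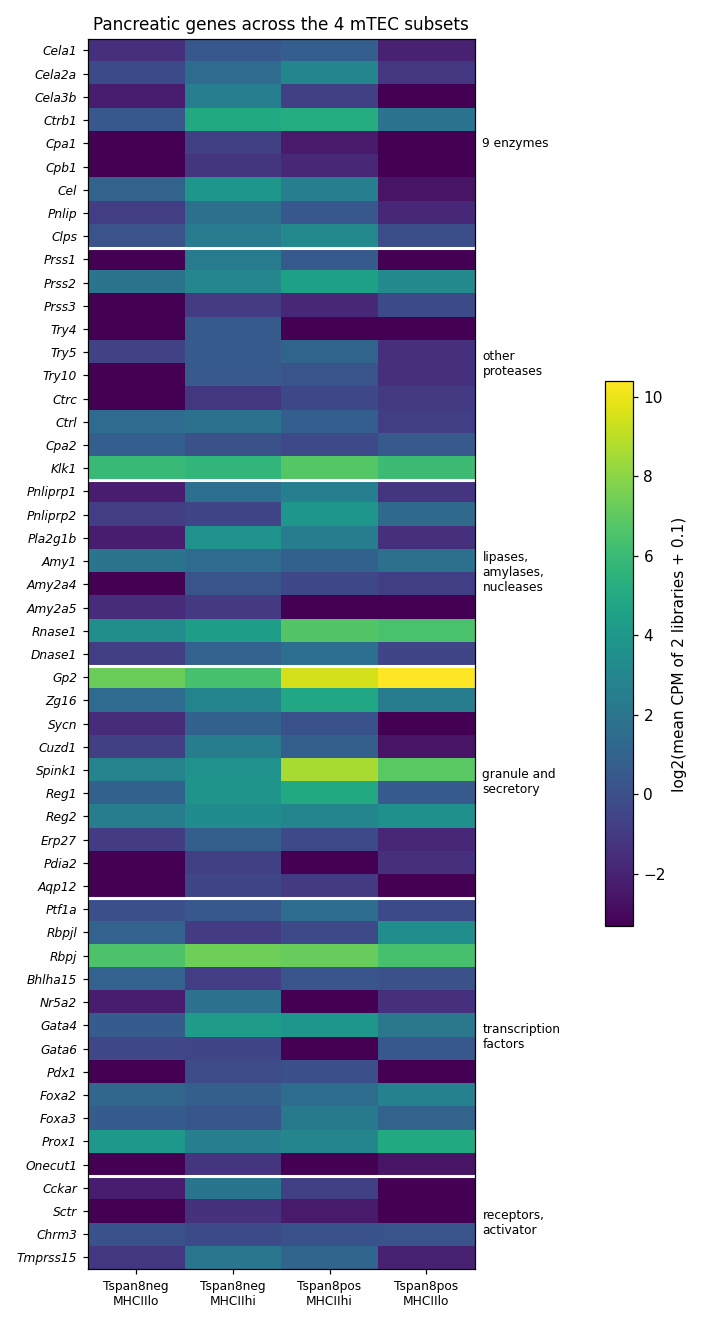
Mean level of the 9 enzyme genes and of 5 lists of other pancreatic genes in the 4 subsets, as log2 of the mean CPM of 2 libraries plus 0.1. The enzymes and Prss1 and Pla2g1b are brightest in the MHCIIhi columns, and Try4 and Cckar in that of Tspan8negMHCIIhi, whereas Gp2 reaches 1339 CPM and Spink1 118 CPM in Tspan8posMHCIIlo.

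The transcription factors of acinar cells lay in both directions. Of the 12 described here, all were in the table and 8 were tested. Ptf1a, the subunit of PTF1 that binds the E-box, gave 1 to 16 counts per library, with means between 0.751 CPM in Tspan8posMHCIIlo and 2.91 CPM in Tspan8posMHCIIhi, and was not called in any comparison. Its partner Rbpjl was highest in Tspan8posMHCIIlo, with 21 and 66 counts there against 3 and 4 in Tspan8posMHCIIhi, and fell by 3.79 ± 0.62 with MHCII in Tspan8pos cells (adjusted p 0.0017). The other partner, Rbpj, was far more abundant and lay the other way. It was at 167 and 94.0 CPM in Tspan8negMHCIIhi and Tspan8negMHCIIlo, and at 148 and 85.5 in Tspan8posMHCIIhi and Tspan8posMHCIIlo. Its log2 changes with MHCII, 0.83 ± 0.17 and 0.80 ± 0.17 (edgeR adjusted p 0.00213 and 0.00799), were under the fold limit and not called. Nr5a2 was found at 16 and 28 counts in Tspan8negMHCIIhi, at 0 in both Tspan8posMHCIIhi libraries and at 0 or 1 in the MHCIIlo libraries. With Tspan8posMHCIIhi taken at a floor of 3 counts over the 2 libraries, it was 11.5-fold lower there than in Tspan8negMHCIIhi, with an adjusted p of 0.00461 by edgeR. Nr5a2 had passed the filter through Tspan8negMHCIIhi alone, so it had to lie in this direction. Its subset was the one that held most of Cela3b. In Tspan8posMHCIIhi, where Nr5a2 was at 0, Ctrb1 stood at 36.1 CPM, Clps at 8.82, Cela2a at 7.61 and Cel at 5.62. A tie between Nr5a2 and any member was not tested. Gata4 was higher with MHCII in both gates, by 3.60 ± 0.41 (adjusted p 5.33e-05) and 1.63 ± 0.35 (adjusted p 0.00861), and Prox1 was lower with MHCII in both.

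Of 4 genes that control acinar secretion or activate its zymogens, 2 were tested. Cckar, the receptor for cholecystokinin, gave 18 and 33 counts in Tspan8negMHCIIhi, 4 and 1 in Tspan8posMHCIIhi and at most 1 in the MHCIIlo libraries, and Tmprss15, the intestinal enteropeptidase that activates trypsinogen, gave 18 and 34, 11 and 10, and at most 2. Both were higher with MHCII in Tspan8neg cells (adjusted p 0.00565 and 0.00449), but both had passed the filter through MHCIIhi libraries alone, which set this direction. Among 8 islet hormones, 7 were tested, and Ins2, Ppy and Pyy were higher with MHCII in both gates. Sst was called in Tspan8pos and not in Tspan8neg cells, a difference that was not called in the interaction, while Iapp went with Tspan8 at both MHCII levels. Among 12 gastric and brush border proteins, 11 were in the table and 10 tested. Of these, 7 were called higher with MHCII in Tspan8neg cells (Pgc, Pga5, Sis, Enpep, Gkn2, Gkn1 and Mgam) and 1 lower (Dpp4). In Tspan8pos cells 3 were called higher (Pgc, Sis and Mgam). Pga5, Gkn1 and Gkn2 were at 0 in Tspan8negMHCIIlo and passed the filter through MHCIIhi libraries, which set their direction. Over all genes tested, 13.1% were called higher and 9.67% lower with MHCII in Tspan8neg cells, and 4.59% and 2.62% in Tspan8pos cells. Pgc, the pepsinogen of the stomach, reached 99.8 CPM in Tspan8negMHCIIhi and 29.8 in Tspan8posMHCIIhi against 1.41 and 1.64 in the MHCIIlo subsets, a higher level than that of any member in Tspan8negMHCIIhi cells before correction for length.

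The genes whose levels over the 8 libraries were most like those of each tested member were sought among genes whose mean reached 10 CPM, which leaves out most of the pancreatic genes listed above. Likeness was measured by Pearson's correlation of log2(CPM + 1). Those nearest to Ctrb1 were Nos2 (r = 0.994), Ces2c (0.993) and Slpi (0.990), each high in both MHCIIhi subsets. Those nearest to Cel were Cnmd, Adam23 and Il12a (r = 0.996 each), all highest in Tspan8negMHCIIhi. Those nearest to Cela3b were Utf1 (0.993), Vwa7 (0.992) and Gtpbp1 (0.985), with Utf1 at 167 CPM in Tspan8negMHCIIhi and 28.4 to 50.2 CPM elsewhere. For Cela2a they were Bfar, Plin2 and Gtf2f2 (0.966 to 0.973), for Pnlip Slc28a2, Gbp8 and Pde4a (0.980 to 0.988), and for Clps Ccdc162, Rgl1 and Mum1l1 (0.971 to 0.986). The points share libraries and subsets, there are 8 of them, and the nearest of 10626 or 10627 genes were taken, so these values describe likeness and carry no p.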

How the data were processed

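RNA-seq was analysed for 8 libraries of sorted mouse mTECs, 2 for each of 4 subsets, grouped by the gates named in the sample titles. The deposited file holds estimated counts, 1 for each gene in each library, made with Salmon 1.8.0 on Gencode mouse transcripts from 54-base single-end reads after FastQC, and the values are whole numbers without normalization. Library preparation is described as a stranded kit in the labels and as pre-amplification with tagmentation in the paper, so the use of strand is not settled. DESeq2 1.30.0, named in the submitters' processing notes, gave values that were not used here.

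Symbols and coordinates came from GENCODE on GRCm38 (25336 of 25466 identifiers, 99.49%, matched), and upstream sequences from RefSeq on GRCm38.p6 (8 of 9 genes matched). Counts were tested in R 4.3.3 with edgeR 4.0.16: TMM, filterByExpr, all 8 libraries fitted together with a mean for each subset (common dispersion 0.024), two-sided quasi-likelihood tests and Benjamini-Hochberg adjustment over 17006 genes. Standard errors were obtained from the fitted change and its F statistic (change over root F). With 2 libraries a group, no exact permutation test can reach 0.05, and none was run. P-values measure only the spread between these libraries. Ratios are those of summed counts over summed TMM depths, with exact 95% intervals. Alternatives were DESeq2 1.42.0, its size factors in edgeR, no filter, at least 10 counts in at least 4 libraries, the 4 libraries of a contrast alone, a replicate block, a threshold of 0.05 for the adjusted p, calls made without the fold limit, and leaving out each library.

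The members and gene lists were chosen with earlier results of these data known, and a few listed genes are not reported here. Of the lists, genes called in a main comparison or among the most abundant were named, though not all of them. The 3 genes nearest to each tested member were named by correlation, leaving out symbols that start with Gm or end in Rik. The edgeR test was tested on simulated data for the MHCII contrast in Tspan8neg cells: with 17006 genes it recovered 26.9% of 2-fold, 80.6% of 4-fold and 97% of 8-fold changes, with 1 false call. Every simulated gene had the same dispersion of 0.024, and the changed genes were drawn at random from all of them. These rates are therefore not the power or error rate for members with few counts.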

Additional observations from a re-analysis of the deposited data

How the results depend on the processing

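The levels of the 9 genes kept their value within the spread between replicates with DESeq2's size factors, and 576 of 635 fold changes under an alternative kept direction and side of the threshold. Within MHCIIlo cells the number of genes called with Tspan8 went from 1 to 0 with DESeq2 and with the 4 libraries of the comparison alone (Cel did not pass the filter there), to 2 at an adjusted p of 0.05, and to between 0 and 1 with a library left out. Within MHCIIhi cells it went from 1 to 0 with DESeq2, which gave Cela3b no adjusted p, to 2 with DESeq2's size factors, without a filter and with the replicate number as a block, to 3 with the 4 libraries alone and at an adjusted p of 0.05, and to between 0 and 2 with a library left out. In the MHCII comparison within Tspan8neg cells it went from 3 to 6 at an adjusted p of 0.05 and to 2 with DESeq2. With a library left out it was 1 to 4 within Tspan8pos cells, 2 to 5 for Tspan8posMHCIIlo against Tspan8negMHCIIhi and 1 to 3 for Tspan8posMHCIIhi against Tspan8negMHCIIlo. The cause of these shifts was not tested.

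Direction turned, or was lost, only on leaving out a library, for changes that were not called. The log2 changes then ranged, for Tspan8 within MHCIIlo cells, from -3.42 to 0.00 (Cela3b, where 0.00 is no change, with 0 counts in both groups), -4.28 to 3.77 (Pnlip) and -5.28 to 0.77 (Clps), and for Ctrb1 within MHCIIhi cells from -0.13 to 0.42. For the interaction they ranged from -0.019 to 3.41 (Cela3b), -2.89 to 5.17 (Pnlip) and -6.09 to 0.12 (Clps).

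Nothing in the sources used here ties libraries with equal numbers to shared mice. The deviations of such libraries from the subset means correlated at 0.0121 to 0.124, and the replicate block changed no member's call but that of Cel within MHCIIhi cells (adjusted p 0.00747). Depth limits what can be said of genes under 3 counts, most of all in replicate 1 of Tspan8posMHCIIlo, where 8 of the 9 were.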
